A study of Mus musculus with 6 samples.

Results

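The Egr family holds the zinc finger transcription factors *Egr1*, *Egr2*, *Egr3* and *Egr4*. Its members were taken as the rows with those 4 gene names out of the 53657 in the counts, and all 4 passed the filter on low counts among 19656 genes tested. RNA was sequenced from undifferentiated spermatogonia, the testis cells that include the stem cells of the male germ line, of 3 WT and 3 MUT adult mice. Every mouse carried Gfra1-creERT2, a tamoxifen-inducible Cre recombinase under the *Gfra1* promoter, and a tdTomato reporter, and every mouse received tamoxifen. MUT mice also carried the FR-Hras G12V allele, in which Cre replaces 1 wild-type *Hras* gene at its own locus by the mutated gene, so that the recombined cells are heterozygous. WT mice were littermates without that allele. Cells positive for tdTomato and bright for the surface protein MCAM were sorted 3 months after tamoxifen, and each sample came from a separate mouse of a mixed strain background. Recombination is mosaic in the testis, and the share of recombined cells in each sample was not analyzed here.

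Egr genes are immediate early genes: their transcription starts within minutes of a signal without new protein synthesis. Ras signaling reaches them through the kinases RAF, MEK and ERK, which phosphorylate ternary complex factors such as ELK1. These factors and the serum response factor SRF together occupy the CArG box and neighboring ETS sites in Egr promoters, and CREB can act through cAMP response elements. The proteins bind GC-rich sites, and the co-repressors NAB1 and NAB2, themselves products of Egr target genes, dampen the activity of EGR1, EGR2 and EGR3. Outside this tissue EGR1 is known for pituitary luteinizing hormone production, EGR2 for myelination by Schwann cells and EGR3 for muscle spindles, and male mice lacking EGR4 are infertile.

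The stretches before the starts of *Egr2* and *Egr4* are shown because the table used here gave windows for these members, and that of *Nab1* because it carries Egr sites. The window of *Nab2* held none of the motifs searched and is not printed. That of *Srf*, which held an Egr site and CArG boxes, is not printed either. Each is the 250 bases before a RefSeq transcript start on GRCm38.p6, 5′ to 3′ on the gene's strand, with motif matches in capitals.
Egr2, chr10:67537619-67537868, plus strand: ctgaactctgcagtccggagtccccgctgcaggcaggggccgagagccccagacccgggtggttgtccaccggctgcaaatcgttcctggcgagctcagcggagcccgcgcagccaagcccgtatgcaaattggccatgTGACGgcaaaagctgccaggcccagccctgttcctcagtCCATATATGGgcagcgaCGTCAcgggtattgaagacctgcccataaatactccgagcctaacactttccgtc
Egr4, chr6:85513590-85513839, minus strand: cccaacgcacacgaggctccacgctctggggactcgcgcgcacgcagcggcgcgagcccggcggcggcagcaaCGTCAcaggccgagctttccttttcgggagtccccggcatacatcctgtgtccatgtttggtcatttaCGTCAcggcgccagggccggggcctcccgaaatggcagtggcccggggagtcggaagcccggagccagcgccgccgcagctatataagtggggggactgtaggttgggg
Nab1, chr1:52500449-52500698, minus strand: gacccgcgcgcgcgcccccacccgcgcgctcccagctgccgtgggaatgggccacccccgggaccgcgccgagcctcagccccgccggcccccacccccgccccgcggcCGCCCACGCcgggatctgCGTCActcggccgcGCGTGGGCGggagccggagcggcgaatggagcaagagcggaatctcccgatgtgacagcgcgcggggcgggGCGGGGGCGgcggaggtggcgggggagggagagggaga
Both strands were searched for the CArG box, the cAMP response element half-site CGTCA, the ETS core CCGGAA and the Egr sites GCGTGGGCG and GCGGGGGCG, and no match overlapped another in these 3 windows. The *Egr2* window held a CArG box, CCATATATGG, at 72 to 63 bases before the start, between CGTCA matches at 111 to 107 bases on the minus strand and 55 to 51 bases on the plus strand. The *Egr4* window held CGTCA at 177 to 173 and 109 to 105 bases, and no CArG box. The *Nab1* window held GCGTGGGCG at 141 to 133 bases on the minus strand and 109 to 101 bases on the plus strand, GCGGGGGCG at 38 to 30 bases, and CGTCA at 123 to 119 bases. Among 32851 windows of the same length, 1.47% held a CArG box, 17.8% CGTCA, 12% CCGGAA, 0.536% GCGTGGGCG and 2.57% GCGGGGGCG. RefSeq gives 5 starts for *Egr2*, and the same CArG box lay in the windows of 3 of them. A window farther upstream, chr10:67537316-67537565, held another CArG box, CCTTTTTTGG, and 3 matches of CCGGAA, and the farthest held no match.

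In GRCm38 *Egr1* lies on chromosome 18 from 34859823 to 34864984 and *Egr2* on chromosome 10 from 67535475 to 67542188, both on the plus strand. *Egr3* lies on chromosome 14 from 70077203 to 70082614 on the plus strand, and *Egr4* on chromosome 6 from 85511121 to 85513589 on the minus strand. No exon of the 4 genes overlapped an exon of another gene, so no fragments were lost to a shared exon. The nearest gene within 5 kb of any member was *Ado*, beside *Egr2*, with 0 shared exon bases.

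*Egr1* and *Egr4* were the most abundant members and *Egr3* the least. On the scale of CPM (fragment counts scaled to a common library total) divided by exon length in kilobases, the only one used here to set genes against each other, the mean over 6 samples was 87.3 for *Egr1*, 85.3 for *Egr4*, 29.7 for *Egr2* and 6.09 for *Egr3*. These levels stood at percentiles 98.2, 98.1, 89.7 and 58.8 of the genes tested, so *Egr1* and *Egr4* were among the higher-level transcripts of the sorted cells. The testis was dissociated and the cells were stained before sorting. The part of that handling in the levels of these early genes was not tested.

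**Figure D1:**
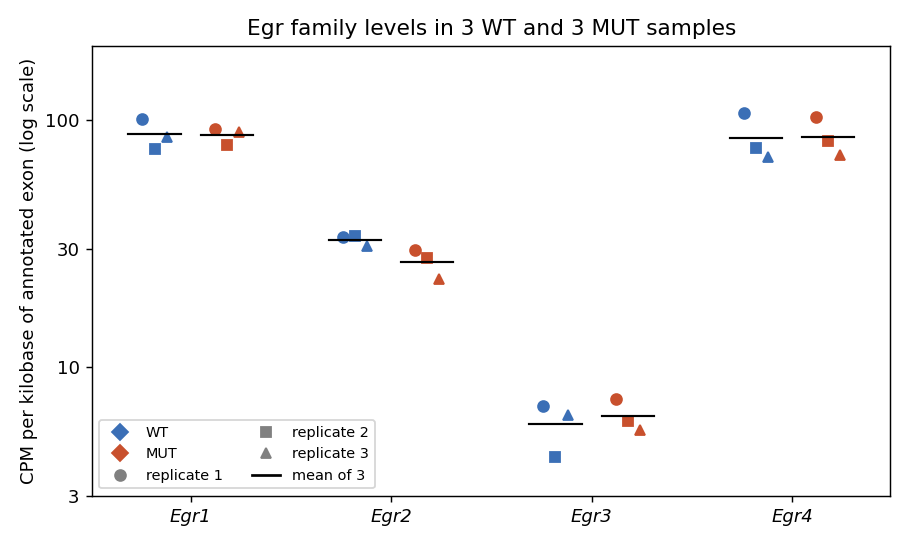
Level of each Egr gene in CPM per kilobase of annotated exon on a log scale, for 3 WT and 3 MUT samples, with the replicate number as the symbol and the mean of each group as a line. *Egr1* and *Egr4* lie between 71.1 and 106.9, *Egr2* between 22.7 and 34.0, and *Egr3* between 4.29 and 7.37.

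The order below the top pair was the same in each sample. *Egr1* was 2.26 to 3.96 times *Egr2*, and *Egr2* was 4.02 to 7.92 times *Egr3*, in 6 of 6 samples. How far *Egr3* lay below *Egr2* rests on its exon length, 4406 annotated bases. With first-listed transcripts, a length chosen after seeing the data that gives *Egr3* 1509 bases, its mean level was 17.8 CPM per kilobase. *Egr2* was then 1.58 to 3.11 times *Egr3*, still in 6 of 6 samples. With the 4291 bases within the RefSeq span of *Egr3* its mean level was 6.255, and *Egr2* was 3.91 to 7.71 times *Egr3* in 6 of 6 samples. *Egr1* and *Egr4* did not differ beyond their spread, with a ratio of 0.894 to 1.25 and *Egr1* higher in 2 of 6 samples. That comparison rests on the exon length too: the annotation gives *Egr1* 4484 exon bases, and with the 3072 that lie within its RefSeq span the ratio was 1.30 to 1.82 and *Egr1* was higher in 6 of 6 samples. With all annotated exons *Egr1* took 39.7% to 47.3% of the summed level of the family, *Egr4* 36.7% to 44.4%, *Egr2* 11.9% to 17.7% and *Egr3* 2.23% to 3.30%, a share that is larger with the shorter length of *Egr3*.

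No Egr gene differed between MUT and WT at a false discovery rate of 0.1 in edgeR's quasi-likelihood test, in which each had an adjusted p of 0.998. The same test called 2 of 19656 genes, or 0.0102%. In *Egr2* alone the groups did not overlap. Bulk samples cannot separate fewer cells of a type from less RNA per cell, and this holds for every level below.

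*Egr2*, the member known for myelination, had 114, 115 and 105 CPM in WT samples 1, 2 and 3, and 101, 94.1 and 77.1 CPM in MUT samples 1, 2 and 3. Each MUT sample lay below each WT sample, and MUT sample 3 was the lowest of all. The means were 111 ± 5.77 CPM in WT and 90.6 ± 12.2 CPM in MUT (SD, n = 3 mice each). The log2 fold change was -0.30 (SE 0.101, 95% interval -0.53 to -0.07), which is an 18.7% lower mean with an interval of 0.693 to 0.954 in fold. The unadjusted p of edgeR's quasi-likelihood test was 0.0173, rank 156 among the genes tested, and 1.44% of those genes were lower and 1.34% higher in MUT at an unadjusted p under 0.05. In 3% of all genes tested every MUT sample lay below every WT sample, and in 7.69% the groups did not overlap in either direction. The exact permutation test over the 20 assignments of samples, two-sided, gave p = 0.1, the smallest that 3 against 3 allows. *Egr2* is one of the genes in a heat map that the study drew from these same samples, so its direction here is not independent evidence.

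Without MUT sample 3 the *Egr2* difference was -0.19 (unadjusted p = 0.0522 in edgeR's quasi-likelihood test). That sample also had the most Leydig cell RNA, with 67.3 CPM summed over 6 marker genes against 12.9 to 21.1 CPM in the others, and 6 of 6 markers were highest there. The part of this RNA in the *Egr2* difference was not tested. Macrophages can express Egr genes, and their 8 markers summed to 971, 862 and 1406 CPM in WT samples 1 to 3 and 763, 908 and 970 CPM in MUT samples 1 to 3. The macrophage sum was highest in WT sample 3, where *Egr2* was lowest among the WT samples, and lowest in MUT sample 1, where *Egr2* was highest among the MUT samples. Between the groups 7 of the 8 markers had a log2 fold change below 0, with a median of -0.28. Markers of differentiating spermatogonia, 5 genes, summed to 658.5 to 719 CPM in WT and 738 to 900.0 CPM in MUT, without overlap of the sums. The part of macrophage RNA and of differentiating spermatogonia in the *Egr2* difference was not tested.

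*Egr1*, the member most used as a readout of ERK activity, had 452, 344 and 382 CPM in WT and 412, 355 and 403 CPM in MUT. All 3 MUT values lay inside the range of the WT values. The means were 393 ± 54.8 and 390.1 ± 30.8 CPM (SD, n = 3), and the log2 fold change was -0.01 (SE 0.112, 95% interval -0.27 to 0.25). In fold the interval ran from 0.832 to 1.19, so a change of *Egr1* by more than that in either direction lay outside it.

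*Egr4*, the member required for male fertility in mice, had 229.5, 165 and 153 CPM in WT and 221, 176 and 155 CPM in MUT. In both groups sample 1 stood above samples 2 and 3, and the groups overlapped almost fully. The log2 fold change was 0.01 (SE 0.173), with a 95% interval of 0.767 to 1.33 in fold. The differences between samples of the same number, MUT minus WT, were -0.06, 0.09 and 0.02 on the log2 scale (SD 0.0738), while the SD of *Egr4* within groups was 0.287 on that scale. Of 2893 genes of like level, 97.1% varied less within groups than *Egr4*.

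*Egr3*, the lowest member, had 30.6, 18.9 and 28.2 CPM in WT and 32.5, 26.5 and 24.5 CPM in MUT. WT sample 2 was the lowest of the 6 and the groups overlapped. The log2 fold change was 0.11 (SE 0.183, 95% interval -0.31 to 0.52). With 442 to 743 counts per sample the counting error of *Egr3* was 4.01% of its value, against a spread of 23.8% of the mean between WT samples and 14.9% between MUT samples. For *Egr1*, *Egr2* and *Egr4* the counting error was 1.05%, 2.07% and 1.54%, so for all 4 genes the spread between samples, which includes sorting and library preparation as well as the mice, was larger than the counting error.

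**Figure D2:**
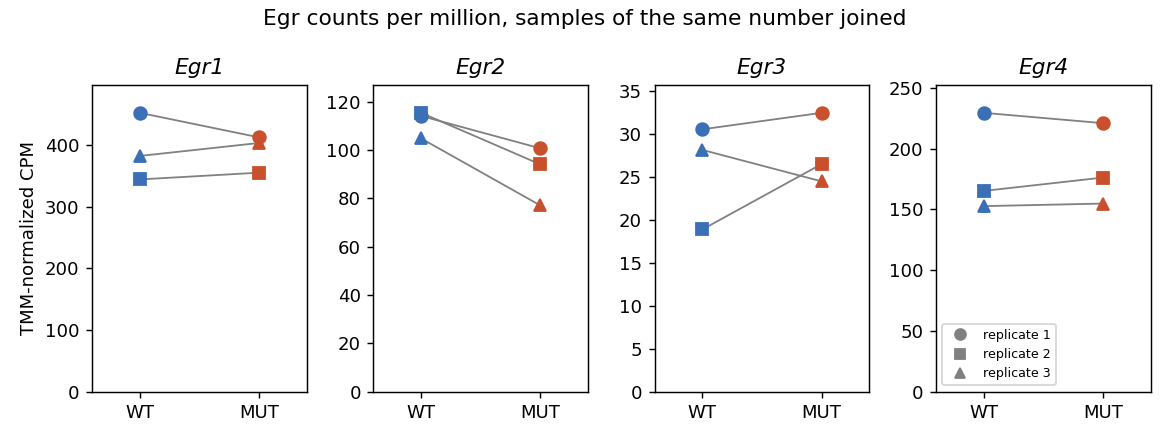
TMM-normalized CPM of each Egr gene in WT and MUT samples, on axes that start at 0, with lines joining samples of the same replicate number. All 3 *Egr2* lines go down, by 0.18, 0.29 and 0.44 on the log2 scale. Any pairing would give this direction, because each MUT value lies below each WT value. The lines of *Egr1*, *Egr3* and *Egr4* go in both directions.

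Between samples of the same number *Egr2* differed by -0.18, -0.29 and -0.44 on the log2 scale, and *Egr3* by 0.09, 0.49 and -0.20. With the number as a block in edgeR the *Egr2* difference was -0.31 (unadjusted p = 0.00276 and adjusted p = 0.287 in edgeR's quasi-likelihood test), still short of the threshold. The labels do not say what the number stands for, so the block and the values by pair rest on an assumption. *Egr2* was also set against the other members as the log2 ratio of *Egr2* to each of them in the same sample. The ratio to *Egr3* was lower in MUT by a mean of -0.43, without overlap of the groups (exact permutation test, two-sided, p = 0.1). The ratios to *Egr1* and *Egr4* differed by -0.30 and -0.33 and overlapped (exact permutation p = 0.2 and 0.3). Over the 3 ratios the adjusted p was 0.3 for each in this exact permutation test. With 3 against 3 samples p cannot go below 0.1, so no ratio could have passed a threshold of 0.05, and *Egr2* was set against the others after its values were seen. Between samples of the same number the ratio was lower in MUT in 3 of 3 pairs for each of the other members. The differences were -0.05, -0.34 and -0.52 for *Egr1*, -0.27, -0.78 and -0.24 for *Egr3* and -0.13, -0.39 and -0.46 for *Egr4*. For the ratio to *Egr3* any pairing would give this direction, because its groups did not overlap.

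The genes that carry the signal to Egr promoters did not differ past the threshold either. Of 6 genes for SRF and its partners, 0 were called and 0 had an unadjusted p under 0.05 in edgeR, where 2.78% of all genes tested did. Their median log2 fold change was 0.05, against 0.01 for all genes tested. *Srf*, which encodes the factor that occupies the CArG box, had 139, 132 and 128 CPM in WT and 143, 141 and 132 CPM in MUT. *Elk1*, a ternary complex factor and direct ERK substrate, had 40.6, 41.6 and 33.5 CPM in WT and 47.6, 41.8 and 44.7 CPM in MUT. Its MUT samples all lay above its WT samples, as did those of 4.69% of all genes, with a log2 fold change of 0.21 (SE 0.101, unadjusted p = 0.0662 in edgeR). The other ternary complex factors *Elk3* and *Elk4* had log2 fold changes of -0.19 and -0.02, and the actin-regulated SRF partners *Mkl1* and *Mkl2* of 0.05 each. In WT sample 3, 5 of the 6 genes were at their lowest. Of 12 genes for the kinases from RAF to the RSK family, again 0 were called and 0 had an unadjusted p under 0.05 in edgeR. Their log2 fold changes ran from -0.06 to 0.14, and *Mapk3*, which encodes ERK1, had the highest level at 66.3 CPM per kilobase.

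With all annotated exons the co-repressors were transcribed at levels between those of *Egr3* and *Egr1*. The levels were 35.8 CPM per kilobase for *Nab2* and 10.8 for *Nab1*. That *Nab1* stood above *Egr3* rests on the exon length of *Egr3*, whose mean level was 17.8 with the length of 1509 bases. *Nab1*, whose upstream window carries the Egr sites printed above, had 44.6, 42.1 and 41.2 CPM in WT and 45.1, 46.8 and 46.1 CPM in MUT. The groups did not overlap, the MUT samples being higher, as in 4.69% of all genes tested. The log2 fold change was 0.11 (SE 0.0697, unadjusted p = 0.152 in edgeR). *Nab2* had 121, 100.3 and 94.1 CPM in WT and 117, 96.2 and 103 CPM in MUT, with full overlap.

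**Figure D3:**
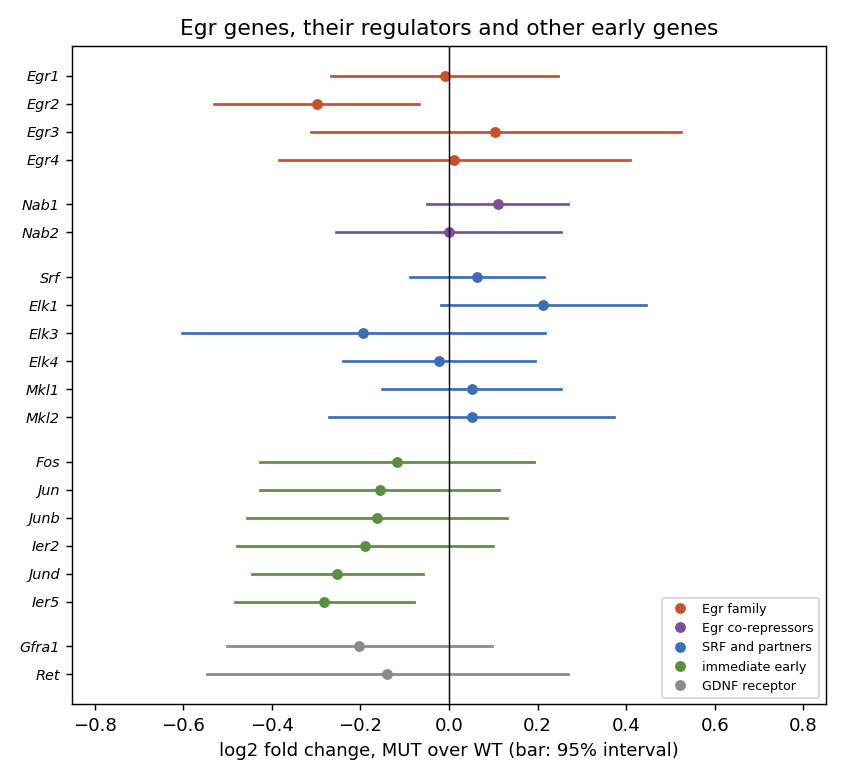
Log2 fold change of MUT over WT with its 95% interval for the Egr genes, their co-repressors, SRF and its partners, 6 other immediate early genes and the GDNF receptor genes. Of the Egr genes *Egr2* alone has an interval that leaves out 0, from -0.53 to -0.07, as do those of *Jund* and *Ier5*. These 2 early genes were drawn as the only 2 of 31 with an unadjusted p under 0.05 in edgeR.

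Other immediate early genes can share the route of induction with the Egr family, and which of those listed here do so was not tested. Of 31 such genes 0 were called, and 2 were lower and 0 higher at an unadjusted p under 0.05 in edgeR. Over all genes tested 0.0102% were called, and 1.44% were lower and 1.34% higher at such a p. Their median log2 fold change was -0.15, with 25 below 0 and 6 above, against a median of 0.01 over all genes tested and of 0.02 over the 10583 genes above 10 CPM. The macrophage markers described above lay on the same side, with 7 of 8 log2 fold changes below 0 and a median of -0.28, and their part in the early gene values was not tested. *Jund*, an AP-1 subunit, had 107, 89.8 and 104 CPM in WT and 88.6, 84.5 and 78.8 CPM in MUT, a log2 fold change of -0.25 (unadjusted p = 0.0164 in edgeR). *Ier5*, an early response gene, had 52.3, 51.2 and 61.5 CPM in WT and 45.5, 47.1 and 43.3 CPM in MUT, a log2 fold change of -0.28 (unadjusted p = 0.0121 in edgeR). In both genes each MUT sample lay below each WT sample, which held for 2 of the 31 genes and for 3% of all genes tested. *Fos*, the partner of *Jun* in AP-1 and the highest of the 31 at 181 CPM per kilobase, had 415, 374 and 543 CPM in WT and 383, 404 and 441 CPM in MUT. The log2 fold change was -0.12 for *Fos*, -0.16 for *Jun*, -0.16 for *Junb* and -0.19 for *Ier2*, with overlap of the groups in each.

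Most of these genes were highest in a sample in which no Egr gene was highest. Of the 31 genes 17 were highest in WT sample 3. *Egr1* and *Egr4* were highest in WT sample 1, *Egr2* in WT sample 2 and *Egr3* in MUT sample 1. Of the 31 genes 4 were highest in WT sample 1, 1 in WT sample 2 and 3 in MUT sample 1. The same WT sample 3 held the highest value of 7 of 8 macrophage markers, 5 of 6 spermatocyte, 4 of 6 spermatid and 4 of 6 B and plasma cell markers. It held that of 0 of 10 markers of undifferentiated spermatogonia and 0 of 6 Leydig cell markers. The part of these cells in the early gene values was not tested.

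**Figure D4:**
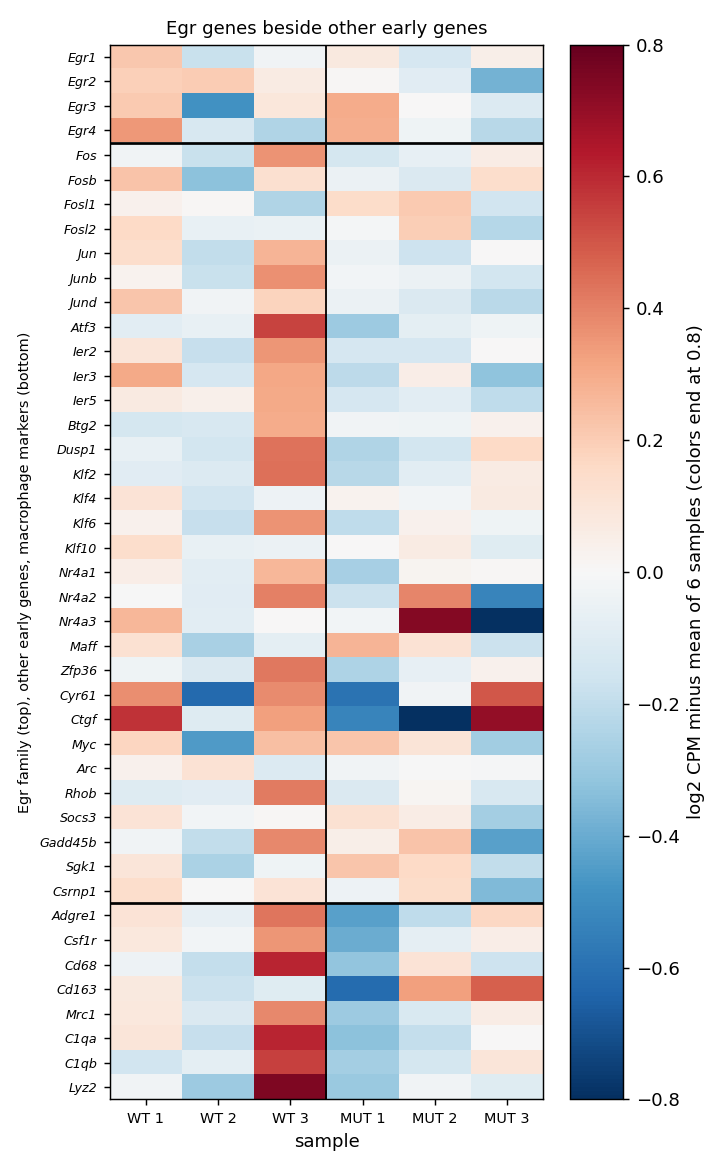
Log2 CPM of the 4 Egr genes, 31 other immediate early genes and 8 macrophage markers (rows, top to bottom) in 3 WT and 3 MUT samples (columns), each gene centered on its mean over the 6 samples. WT sample 3 has the highest value for 17 of the 31 early genes and 7 of the 8 macrophage markers, and for 0 of the 4 Egr genes.

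Genes described elsewhere as targets of Egr proteins were followed as a list of 20, which spans several tissues. Of these 0 were called and 0 had an unadjusted p under 0.05 in edgeR, against 0.0102% and 2.78% of all genes tested. In the list 10 log2 fold changes were above 0 and 10 below, with a median of -0.001. *Fn1*, which encodes fibronectin, had the highest level of the list, 33.3 CPM per kilobase, with 415, 423 and 276 CPM in WT and 416, 410 and 392 CPM in MUT. *Trp53*, the p53 tumor suppressor gene, had 90.9, 87.6 and 85.9 CPM in WT and 91.8, 93.6 and 92.5 CPM in MUT, a log2 fold change of 0.07 without overlap. *Fasl*, the death ligand gene that EGR2 and EGR3 induce in T cells, was the only other gene of the 20 without overlap, at 0.169 to 0.437 CPM in WT and 0.477 to 0.656 CPM in MUT. In both genes the MUT samples were higher, as in 4.69% of all genes tested. A level of 3 counts corresponds to 0.127 to 0.132 CPM, so *Fasl* rested on few fragments.

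Undifferentiated spermatogonia receive GDNF through the receptor genes *Gfra1* and *Ret*, which signal in part through Ras. *Gfra1*, the co-receptor gene, had 147.5, 146 and 110.1 CPM in WT and 133, 104 and 115 CPM in MUT, with a log2 fold change of -0.20 (SE 0.131). *Ret*, the receptor kinase gene, had 443, 388 and 276 CPM in WT and 400.1, 303 and 301 CPM in MUT, with a log2 fold change of -0.14 (SE 0.178). Both genes overlapped between the groups and were highest in WT sample 1. Of 8 genes that respond to GDNF in spermatogonia 0 were called, against 0.0102% of all genes tested. *T*, which encodes brachyury, was lower at an unadjusted p of 0.0439 in edgeR, with a log2 fold change of -0.39 and overlapping groups. At an unadjusted p under 0.05 in edgeR, 1.44% of all genes tested were lower. *Etv5*, the highest of the 8, had 161, 158 and 121 CPM in WT and 160, 109 and 120.3 CPM in MUT. The median log2 fold change of the list was -0.13, with 7 of 8 below 0. Most genes of this list, *Gfra1* and *Ret* are in the same heat map of the study, so their direction is not independent evidence either.

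Among the 10582 other genes above 10 CPM, the pattern most like *Egr2* over the 6 samples was that of *Fam43a*, with a root mean square difference of 0.0224 between centered log2 CPM values. *Fam43a* had 16.7, 16.7 and 15.4 CPM in WT and 14.7, 14.3 and 11.5 CPM in MUT. *Zfp703* and *Pelo* came next, at 0.0648 and 0.0679. The genes most like *Egr1* were *Rcn1*, *Iqgap2* and *Lmbr1l*, at 0.0375, 0.0444 and 0.0488. The genes most like *Egr4* were *Vwa5b2*, *Abcg1* and *Fam13c*, at 0.0697, 0.0714 and 0.0782. Those most like *Egr3* were *Hoxc4*, RP23-410L16.1 and *B4galnt1*, at 0.101, 0.123 and 0.13. No Egr gene was among the 3 genes most like another. The smallest difference between members was 0.179, for *Egr1* and *Egr4*, and the best rank of a member was that of *Egr1*, at 61, among the genes most like *Egr3*. These values are descriptions over 6 samples of the same libraries, searched over all those genes.

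Each sample had between 22729292 and 23550433 counts. The 10 markers of undifferentiated spermatogonia, the cells the sort is named for, summed to 3484 to 3992 CPM in WT and 3676 to 4086 CPM in MUT. *Hras*, the targeted gene, had 56.8 to 65.2 CPM in WT and 61.0 to 69.9 CPM in MUT, a log2 fold change of 0.14 (SE 0.0827, adjusted p = 0.998 in edgeR). Counts per gene do not separate its wild-type and mutated transcripts, so they do not check the genotype. Spermatid markers, 6 genes, summed to 877 to 1486 CPM in WT and 607 to 1159 CPM in MUT, and 6 of 6 had a log2 fold change below 0. Their part in the values above was not tested.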

How the data were processed

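RNA-seq of sorted spermatogonia from 3 WT and 3 MUT mice was analyzed. The authors deposited 1 table of raw fragment counts a mouse, with gene names as rows and no normalization. Per the file headers they came from featureCounts 1.6.2 in paired-end mode on GENCODE vM17 with tdTomato added, without strand and without multi-mapping or ambiguous fragments. The submitters' processing notes name STAR, FastQC and GRCm38.p6.

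The count tables were joined by name. In R 4.3.3, edgeR 4.0.16 normalized counts by TMM, filtered them with filterByExpr and compared MUT with WT by quasi-likelihood F tests in a model of genotype alone, with p-values adjusted by Benjamini-Hochberg and a threshold of 0.1. CPM are TMM-normalized, and levels are divided by the exon length in the files. Exact permutation tests used all 20 assignments of the samples. The script was tested on simulated counts. Alternatives used DESeq2 1.42.0, limma 3.58.1 voom, other size factors, filters, a replicate block and samples left out. Other exon lengths were chosen after seeing the data.

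The labels number the mice 1 to 3 in each group. Deviations from the group means correlated at 0.304, 0.156 and 0.395 between same-numbered samples over 10583 genes, but MUT sample 1 correlated at 0.326 with WT sample 2. The labels do not say what the number stands for, so treating the numbers as pairs is an assumption. The study's methods use no block, and the fit without it is the main one.

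The Egr genes and the 20 gene lists were chosen with earlier results of these data known. Named genes are the Egr genes, *Nab1*, *Nab2*, SRF and its partners, *Fos*, *Jun*, *Junb*, *Ier2*, *Gfra1*, *Ret*, genes of the other lists with an unadjusted p under 0.05 and the highest of each list, and the 3 genes most like each member. *Trp53* and *Fasl* were named after their values were seen. Promoter windows are from RefSeq, and the table used here gave windows for *Egr2* and *Egr4*. Values that depend on depth reflect counting error alone, and PCR duplicates could not be told from separate molecules.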

Additional observations from a re-analysis of the deposited data

How the results depend on the processing

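The number of Egr genes called was 0 under each of the 12 alternatives, and so was the number called in each of the 8 lists of regulators, targets and early genes. The replicate block changed no call of a member. *Egr2* kept its direction in all 12, with log2 fold changes of -0.31 to -0.29 in the 6 other fits and -0.39 to -0.19 when 1 sample was left out. The other members did not keep theirs. Leaving out 1 sample gave -0.109 to 0.095 for *Egr1*, -0.0898 to 0.2331 for *Egr3* and -0.1476 to 0.2023 for *Egr4*, and a minimum of 10 counts in every sample gave -0.0013 for *Egr4*. The cause was not tested. With exons within the RefSeq span the mean ratio of *Egr1* to *Egr4* was 1.508, against 1.033.

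Over all genes the 2 calls became 9 with DESeq2, 4 with limma voom, 5 without a filter, 13 with the replicate block, and 0 with the minimum of 10 counts (479 genes at an unadjusted p under 0.05 in edgeR). Leaving out 1 sample gave 0 to 6, with 0 without MUT replicate 2. At an unadjusted p under 0.05 in edgeR there were 547 genes, 1297 with the replicate block, 292 without MUT replicate 2 and 1736 without MUT replicate 3. The number of mice, 3 per group, limits the precision, since the spread between samples was larger than the counting error.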

Other observations

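Of 6 heat shock genes, a class that responds to stress such as cell handling, 0 were called or had an unadjusted p under 0.05 in edgeR. Over all genes tested 0.0102% were called and 2.78% had such a p. The log2 fold changes of the 6 genes ran from -0.12 to 0.09. *Hspa8*, a constitutive chaperone gene and the highest of the list, had 893, 962 and 887 CPM in WT and 1037, 989.7 and 883 CPM in MUT. WT sample 3, which had the most early gene and macrophage RNA, had the highest value for 2 of these 6 genes.

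Sertoli cell markers summed to 18.2 to 23.4 CPM in WT and 20.4 to 28.3 CPM in MUT, endothelial markers to 45.2 to 59.3 and 44.5 to 54.7 CPM, peritubular myoid markers to 7.91 to 9.68 and 9.15 to 12.8 CPM, and T cell markers to 12.5 to 14.6 and 13.4 to 15.2 CPM. B and plasma cell markers ranged widely, from 40.3 to 266.9 CPM in WT and 5.12 to 51.6 CPM in MUT. Among germ cells, 5 markers of differentiating spermatogonia summed to 658.5 to 719 CPM in WT and 738 to 900.0 CPM in MUT, without overlap. All 5 had a log2 fold change above 0, with a median of 0.21. Of the 5 genes 0 were called, against 0.0102% of all genes tested. At an unadjusted p under 0.05 in edgeR 2 of the 5 were higher, as were 1.34% of all genes tested. Spermatocyte markers summed to 289 to 535 CPM in WT and 325 to 437 CPM in MUT. The part of these cells in the Egr values was not tested.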
